A study of Mus musculus with 22 samples.

Results

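DNA methylation in mouse embryonic stem cells is set by a small group of enzymes and regulators, and 10 of their genes were followed here across culture media: Dnmt1, Dnmt3a, Dnmt3b, Dnmt3l, Uhrf1, Tet1, Tet2, Prdm14, Apobec1 and Tdg. They were found through the gene symbols of the bead array probes, without regard to their values. On the MouseRef-8 arrays 9 of the 10 genes had a probe (14 of 25697 probes), and on the MouseWG-6 arrays all 10 did (19 of 45281 probes). On each platform 8 genes carried their current symbol in the files. Tet2, and on MouseWG-6 also Tet1, were listed under older names and were matched through the RefSeq gene table. A probe counted as detected when its signal exceeded the negative control beads of its array at a detection p below 0.01, and a gene was tested when a probe of it was detected on at least 2 arrays. This left 8 of the 10 genes for MouseRef-8 (of 9153 genes tested) and 9 for MouseWG-6 (of 10531). Dnmt3a was the gene lost on both.

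The cells were embryonic stem cell lines kept without serum in N2B27, with LIF and kinase inhibitors. R2i medium held PD0325901 (PD), which blocks MEK, and SB431542 (SB), which blocks the type I receptors of TGF-beta, Activin and Nodal. 2i medium held PD and CHIR99021, which blocks GSK3, and the remaining media had just PD or just SB. Lines B20 and B18, from C57BL/6 blastocysts, were derived in PD with SB and transferred for 10 passages to the other media. Each was measured on 3 R2i, 2 2i and 3 PD arrays (MouseRef-8, 16 arrays), and all of these media contained PD. Lines C17 (BALB/c) and B4 (C57BL/6) were each measured on 1 R2i, 1 PD and 1 SB array (MouseWG-6, 6 arrays). For the C17 PD and C17 SB samples one label field names B4 while the title names C17. The titles were used. Among the 100 genes with the greatest gap between the C17 and B4 R2i arrays, 89 had a C17 PD level nearer to C17 R2i than to B4 R2i. The same held for 96 of them in C17 SB, but for 7 in B4 PD and 26 in B4 SB.

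Cytosine methylation is written de novo by DNMT3A and DNMT3B, with DNMT3L as a catalytically inactive partner. It is copied after replication by DNMT1, which UHRF1 brings to hemimethylated CpG sites. TET1 and TET2 oxidise methylcytosine, TDG excises the oxidised bases, and APOBEC1 is a cytidine deaminase best known for editing RNA. PRDM14 is a PR-domain protein of naive stem cells and germ cells that is known to repress the Dnmt3 genes in mouse embryonic stem cells, and MEK inhibition is known to lower methylation in these cells.

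The sequences just upstream of Dnmt3b and Dnmt3l are shown because these are the de novo genes whose levels followed the media differently. RefSeq windows (GRCm38.p6) were at hand for 9 of the 10 genes, and each window below holds the 250 bases before an annotated start. CpG sites, the target of the enzymes themselves, are in capitals.
Dnmt3b, chr2:153649199-153649448, plus strand: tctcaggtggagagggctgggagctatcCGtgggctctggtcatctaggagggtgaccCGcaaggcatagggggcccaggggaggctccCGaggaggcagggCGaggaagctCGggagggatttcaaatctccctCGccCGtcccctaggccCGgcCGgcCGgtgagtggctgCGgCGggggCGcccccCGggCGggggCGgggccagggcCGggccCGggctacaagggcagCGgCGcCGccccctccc
Dnmt3l, chr10:78042037-78042286, plus strand: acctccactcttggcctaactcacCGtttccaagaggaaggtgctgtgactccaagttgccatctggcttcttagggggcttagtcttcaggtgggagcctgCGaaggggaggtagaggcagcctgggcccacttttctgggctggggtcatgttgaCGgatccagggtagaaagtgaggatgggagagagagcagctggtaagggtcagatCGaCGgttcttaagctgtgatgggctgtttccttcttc
The Dnmt3b window held 21 CpG sites, and 83.7% of the 32851 mouse promoter windows held fewer. The Dnmt3l window, the most upstream of 3 for that gene, held 5, and 44.4% of windows held fewer. The other Dnmt3l windows held 4 and 3, and which start these cells used was not tested. Letters of 4 short motifs were searched on both strands of the 16 windows of these genes: GTCTCTA from the PRDM14 motif, AAGGTCA from the ESRRB motif, CTTTGAT for TCF and LEF, and TTCCCGC for E2F. TTCCCGC lay in 1 of the 16 windows, which was 1 of the 2 for Uhrf1, and in 3.82% of all windows. The other 3 motifs, held by 2.85%, 4.08% and 3.21% of all windows, were in none of the 16.

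Between 42.1% and 45.4% of probes were detected on each MouseRef-8 array and 30.01% to 31.73% on each MouseWG-6 array. All 8 embryonic stem cell markers listed were detected on both platforms. Of 7 feeder fibroblast markers, only Thy1 was detected on any array. Inhibitor readouts moved with the media: Lefty1, a Nodal target, was above background on every PD array of B18 and B20 but on 0 of the 6 in R2i, and was at least 15.95-fold lower in R2i, taking for each R2i array the lowest signal of its detected probes, and Axin2, a Wnt target, was higher by 0.68 in 2i than in PD. In C17 and B4 the MEK and ERK target Egr1 was lower by 4.63 log2 units in PD than in SB (detected on 1 of 2 PD arrays). All levels below are normalised log2 intensities, in which 1 unit is a doubling of the offset intensity. They are compared only within a probe, and a change in RNA per cell cannot be told apart from a change in the share of cells with that RNA. Each line of B20 and B18 was on its own chip, and each medium held the same positions on both chips, so these cannot be told apart from line and medium.

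Dnmt3b was higher in R2i than in either other PD medium in both lines. Its levels were 11.92, 11.92 and 11.98 in B20 R2i and 11.50, 11.34 and 11.35 in B18 R2i. In 2i they were 10.99 and 11.03 in B20 and 11.03 and 11.03 in B18, and in PD 10.86, 10.83 and 11.19 in B20 and 10.89, 10.91 and 10.94 in B18. All 6 R2i arrays lay above all 10 arrays of the other media. The log2 change was 0.73 for R2i against PD (SE 0.067, 1.66-fold, adjusted p = 6.45e-07) and 0.65 for R2i against 2i (SE 0.075, 1.57-fold, adjusted p = 6.46e-06). For 2i against PD it was 0.08 (95% interval -0.07 to 0.24), which did not pass the test. A second, dimmer Dnmt3b probe gave 0.66 for R2i against PD and 0.54 for R2i against 2i, and both passed.

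**Figure D1:**
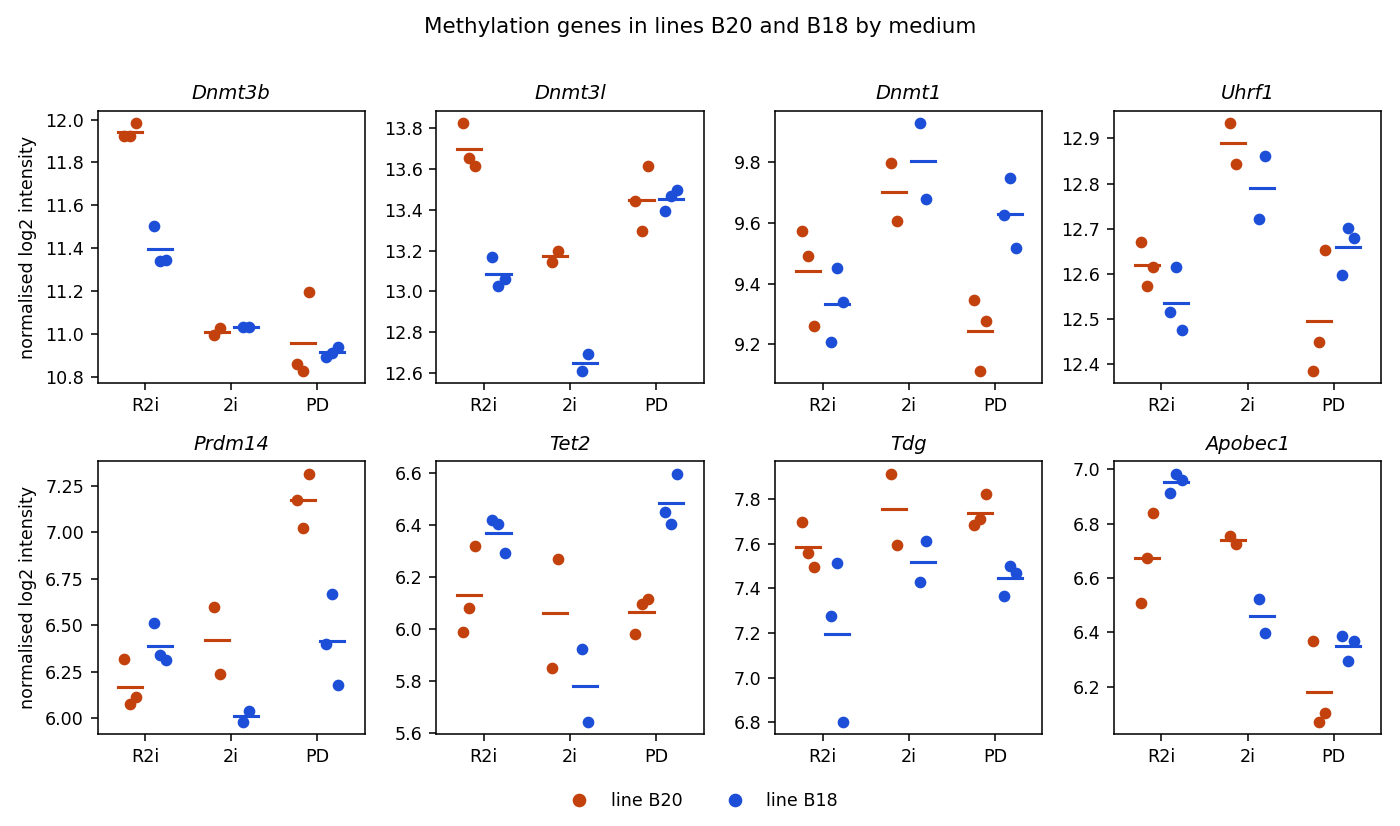
Normalised log2 intensity (vertical axes, scaled to each gene) of the 8 tested genes in R2i, 2i and PD, with 1 point per array, short bars at the mean of each line and medium, B20 in orange and B18 in blue. Dnmt3b in R2i lies above every 2i and PD array, and Prdm14 is highest on the 3 B20 PD arrays.

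Dnmt3l, whose product stimulates the active de novo enzymes, followed another order and was lowest in 2i. It read 13.82, 13.66 and 13.61 in B20 R2i and 13.17, 13.03 and 13.06 in B18 R2i. In 2i the values were 13.14 and 13.20 in B20 and 12.61 and 12.69 in B18, against 13.44, 13.29 and 13.61 in B20 PD and 13.40, 13.47 and 13.50 in B18 PD. Within each line the 2i arrays lay below every R2i and PD array. The level fell by 0.54 log2 units in 2i relative to PD (SE 0.074, adjusted p = 5.25e-05). That change was -0.28 within B20, which did not pass (adjusted p = 0.0894), and -0.80 within B18, while the difference between the lines was 0.52 (adjusted p = 0.0808). R2i stood 0.48 above 2i (SE 0.074, adjusted p = 0.000123). R2i against PD gave -0.06 (95% interval -0.20 to 0.08), an average over lines that went opposite ways, as described further on. The second Dnmt3l probe gave -0.58, 0.52 and -0.06 for these comparisons.

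Dnmt3a, the other active de novo enzyme, gave probe signals at background throughout. Its 2 probes were detected on 0 of 16 arrays of B20 and B18, and its 3 probes on 0 of 6 arrays of C17 and B4. No change can be given for it at this sensitivity. Both MouseRef-8 probes are annotated to the same RefSeq transcript, and whether the probes read other Dnmt3a transcripts was not tested. These signals therefore do not show that Dnmt3a RNA was absent.

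Of the 8 genes tested in B20 and B18, 3 changed between R2i and PD, 5 between R2i and 2i, and 6 between 2i and PD, while 18.9%, 27.8% and 23.7% of all genes tested changed in these comparisons. For R2i against PD, Dnmt3b and Apobec1 were higher and Prdm14 lower. The median change over the 8 genes was -0.04, against 0.01 over all genes. For R2i against 2i the median was 0.14 (0.01 over all genes), and for 2i against PD 0.06 (-0.01 over all genes). Within a line, 3 genes changed between R2i and PD in both B20 (9.31% of all genes) and B18 (15.2%). Between R2i and 2i, 2 changed in B20 (15.4%) and 5 in B18 (18.1%), and between 2i and PD, 4 changed in B20 (13.9%) and 2 in B18 (15.9%). Fitted on the arrays of 1 line alone the counts were the same, except that 2 genes changed between 2i and PD in B20. The comparisons share arrays in pairs, so their results for 1 gene are not independent.

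**Figure D2:**
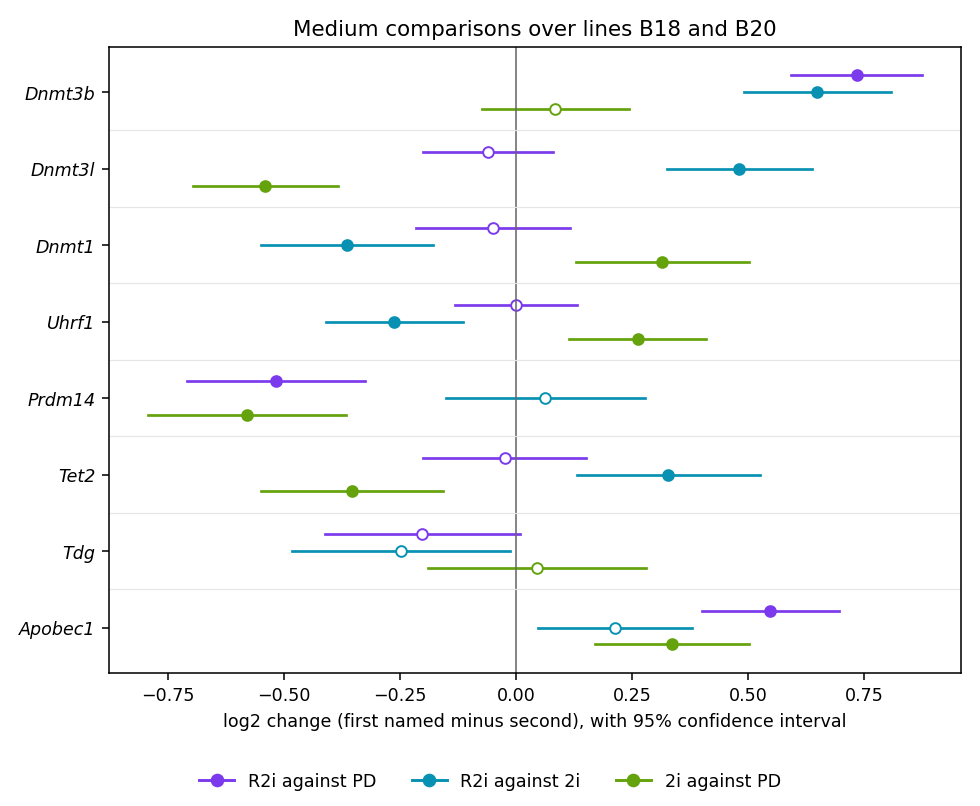
Log2 change (horizontal axis) of each gene over lines B18 and B20 with its 95% confidence interval, for R2i against PD, R2i against 2i and 2i against PD. Filled points passed an adjusted p of 0.05. Dnmt3b stands at 0.73 and 0.65 in the R2i comparisons and at 0.08 for 2i against PD, while Dnmt1 and Uhrf1 moved in the comparisons with 2i.

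The maintenance genes Dnmt1 and Uhrf1 were highest in 2i. Dnmt1 read 9.80 and 9.61 in B20 2i and 9.93 and 9.68 in B18 2i, and all 6 R2i arrays, from 9.21 to 9.57, lay below these 4 arrays. In PD the lines differed, with 9.34, 9.11 and 9.28 in B20 and 9.62, 9.75 and 9.52 in B18. Dnmt1 was lower in R2i than in 2i by a log2 change of -0.36 (SE 0.088, adjusted p = 0.00512), and higher in 2i than in PD by 0.32 (SE 0.088, adjusted p = 0.0148). R2i against PD gave -0.05 (95% interval -0.22 to 0.12).

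Uhrf1 read 12.93 and 12.84 in B20 2i and 12.72 and 12.86 in B18 2i, above the 6 R2i arrays, which ran from 12.48 to 12.67. The 6 PD arrays ran from 12.38 to 12.70 and also lay below the 4 2i arrays. The log2 change was -0.26 for R2i against 2i (SE 0.070, adjusted p = 0.0097) and 0.26 for 2i against PD (SE 0.070, adjusted p = 0.0114). A dimmer Uhrf1 probe pointed the same ways, at -0.38 and 0.33, without passing (adjusted p = 0.127 and 0.198). Pcna, the replication clamp that recruits DNMT1, moved with these genes, at -0.61 for R2i against 2i and 0.39 for 2i against PD, and its part in the result was not tested.

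These maintenance changes are small and rest on 4 2i arrays. For 2i against PD, Dnmt1 gave 0.46 within B20 (adjusted p = 0.0216) and 0.17 within B18 (adjusted p = 0.383), and Uhrf1 gave 0.39 within B20 (adjusted p = 0.0135) and 0.13 within B18 (adjusted p = 0.412). Neither difference between the lines passed (adjusted p = 0.457 and 0.371). Without the first B18 2i array the 2i against PD change of Dnmt1 was 0.25 (adjusted p = 0.0801), and without the first B20 2i array 0.27 (adjusted p = 0.0724). Without the second B18 2i array Uhrf1 gave 0.23 for 2i against PD (adjusted p = 0.0594) and -0.23 for R2i against 2i (adjusted p = 0.0547). With median scaling, which moved the median of all genes to -0.11 for 2i against PD, Dnmt1 and Uhrf1 each gave 0.18 (adjusted p = 0.245 and 0.153).

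Among the genes of methylation removal, Apobec1 was lowest in PD. It read 6.51, 6.67 and 6.84 in B20 R2i and 6.92, 6.98 and 6.96 in B18 R2i. In 2i the values were 6.76 and 6.73 in B20 and 6.52 and 6.40 in B18, against 6.37, 6.07 and 6.10 in B20 PD and 6.39, 6.30 and 6.37 in B18 PD. All R2i and 2i arrays lay above all PD arrays. The change was 0.55 for R2i against PD (SE 0.070, 1.46-fold, adjusted p = 3e-05) and 0.33 for 2i against PD (SE 0.078, adjusted p = 0.00505). The 2i against PD change was 0.56 within B20 (adjusted p = 0.0029) and 0.11 within B18, which did not pass (adjusted p = 0.559), and the difference between the lines was 0.45 (adjusted p = 0.158). R2i against 2i gave 0.21 and missed the threshold (adjusted p = 0.0527), with 0.49 in B18 and -0.07 in B20.

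Tet2 was lower in 2i than in R2i or PD over both lines. It read 5.85 and 6.27 in B20 2i and 5.92 and 5.64 in B18 2i, against 5.98, 6.09 and 6.12 in B20 PD and 6.45, 6.41 and 6.60 in B18 PD. R2i arrays gave 5.99, 6.08 and 6.32 in B20 and 6.42, 6.40 and 6.29 in B18. Over both lines the change was -0.35 for 2i against PD (SE 0.093, adjusted p = 0.0107) and 0.33 for R2i against 2i (SE 0.093, adjusted p = 0.0141). Within B18 the 2i against PD change was -0.70 and within B20 it was 0.00 (95% interval -0.28 to 0.27). The difference between the lines was 0.70 (SE 0.186) and did not pass the test (adjusted p = 0.066). The pooled call was lost without the first B20 2i array (-0.25, adjusted p = 0.0763) and without the second B18 2i array (-0.28, adjusted p = 0.0666). The same arrays decided the R2i against 2i call of Tet2, at 0.22 (adjusted p = 0.101) and 0.26 (adjusted p = 0.0876).

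Tdg, the glycosylase that removes oxidised methylcytosine, did not pass in any medium comparison of B20 and B18. Its changes were -0.20 for R2i against PD, -0.25 for R2i against 2i and 0.05 for 2i against PD. One B18 R2i array, at 6.80, lay below the others, which ran from 7.28 to 7.91 over all media. Without another B18 R2i array, the second, Tdg passed in limma for both R2i comparisons. It then gave -0.28 against PD (adjusted p = 0.0478) and -0.33 against 2i (adjusted p = 0.0272). A second Tdg probe was not detected on any array of either platform. Tet1 had no MouseRef-8 probe.

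Prdm14 was highest in PD on average, and most of all in line B20. B20 PD arrays read 7.18, 7.03 and 7.32, above every other array. B20 R2i arrays read 6.32, 6.08 and 6.11, and B20 2i arrays 6.60 and 6.24. In B18 the values were 6.51, 6.34 and 6.31 in R2i, 5.98 and 6.04 in 2i, and 6.40, 6.67 and 6.18 in PD, so that R2i and PD overlapped. Over both lines Prdm14 was lower in R2i than in PD by -0.52 (SE 0.091, adjusted p = 0.00064) and lower in 2i than in PD by -0.58 (SE 0.101, adjusted p = 0.000537). The 2i against PD change was -0.75 within B20 (adjusted p = 0.00215) and -0.41 within B18 (adjusted p = 0.0654). R2i against 2i gave 0.06 (95% interval -0.15 to 0.28).

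The R2i against PD change, which compares cells kept in PD with SB and cells transferred to PD without SB, differed between the lines for 3 of the 8 genes, against 4.29% of all genes. For Prdm14 the change was -1.004 within B20 (SE 0.128, 2.01-fold lower, adjusted p = 8.13e-05) and -0.03 within B18 (95% interval -0.30 to 0.24). The difference, B20 minus B18, was -0.98 (SE 0.181, adjusted p = 0.00613). Dnmt3l gave 0.25 within B20 (adjusted p = 0.112) and -0.37 within B18 (adjusted p = 0.0134), where all 3 R2i arrays lay below all 3 PD arrays. The difference for Dnmt3l was 0.61 (SE 0.132, adjusted p = 0.0154), and its second probe gave 0.65. With median scaling it was 0.55 and missed the threshold (adjusted p = 0.0576).

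Dnmt3b was higher in R2i in both lines, by 0.98 within B20 (1.98-fold) and 0.48 within B18. The difference of 0.50 (SE 0.134) passed narrowly (adjusted p = 0.0448). It missed the threshold in 13 of the 16 fits that left out 1 array, where it ran from 0.43 to 0.62, with adjusted p up to 0.122. With arrays scaled to a common median it was 0.48 (adjusted p = 0.159). The second Dnmt3b probe gave a difference of 0.67.

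**Figure D3:**
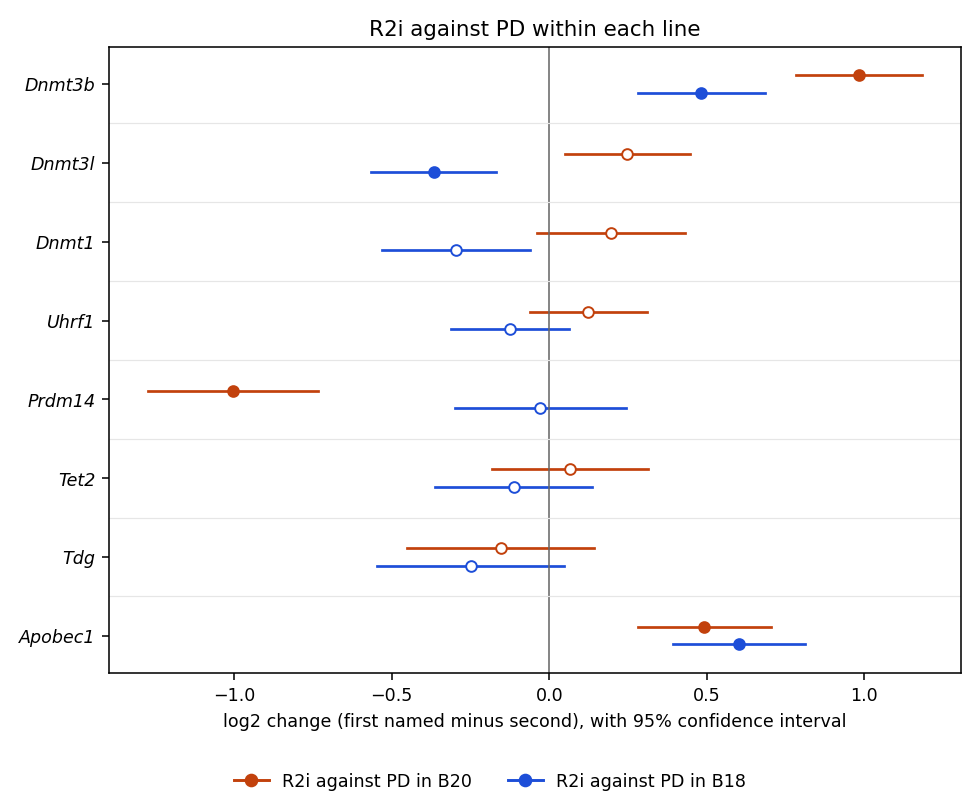
Log2 change of R2i against PD (horizontal axis) with its 95% confidence interval, within B20 (orange) and within B18 (blue). Filled points passed an adjusted p of 0.05. Prdm14 stands at -1.004 in B20 and -0.03 in B18, and Dnmt3l lies on opposite sides of 0.

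For R2i against 2i and for 2i against PD, 0 of the 8 genes differed between the lines in limma, against 1.37% and 1.73% of all genes. Over all genes 1270 and 1502 had an unadjusted p below 0.05 in these tests. The smallest adjusted p among the 8 were 0.0769 for Dnmt3b (difference 0.57) in the R2i against 2i test and 0.066 for Tet2 in the 2i against PD test.

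Averaged over media, 4 of the 8 genes were higher in B20 than in B18, against 33.0% of all genes changed in either direction and 15.8% higher. The changes were 0.38 for Dnmt3l (adjusted p = 0.000241), 0.32 for Prdm14 (adjusted p = 0.0069), 0.30 for Tdg (adjusted p = 0.0148) and 0.19 for Dnmt3b (adjusted p = 0.0209). The difference depended on medium. Dnmt3b was 0.55 higher in B20 within R2i, and it gave -0.02 within 2i and 0.05 within PD. Prdm14 was 0.76 higher in B20 within PD and gave -0.22 within R2i. The second Dnmt3b probe gave -0.12 for B20 against B18 (adjusted p = 0.196), so the average line difference of Dnmt3b was not shared by its probes.

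Lines C17 and B4 add a medium without PD, at 1 array for each line and medium, fitted with line and medium as additive terms. Prdm14 was higher in both media that held PD. The Prdm14 probe used here is listed under a LOC number that is the gene's identifier, and it read 5.66 in C17 R2i and 6.54 in B4 R2i, 5.89 in C17 PD and 6.72 in B4 PD, and 4.94 in C17 SB and 5.72 in B4 SB. In each line the SB array was the lowest, and in C17 SB the probe was not detected. The change was 0.98 for PD against SB (SE 0.136, adjusted p = 0.00365) and 0.78 for R2i against SB (SE 0.136, adjusted p = 0.0235). These sizes depend on the background correction: without it they were 0.35 (adjusted p = 0.0669) and 0.27 (adjusted p = 0.161). With no filter on detection the sizes stood but the adjusted p were 0.0613 and 0.192. The R2i against SB call was also lost without the B4 R2i array (adjusted p = 0.0902), without the C17 R2i array (adjusted p = 0.089) and without the C17 SB array (adjusted p = 0.0868). The Prdm14 probe used on MouseRef-8 was detected on 1 of these 6 arrays, B4 PD, at 5.34.

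**Figure D4:**
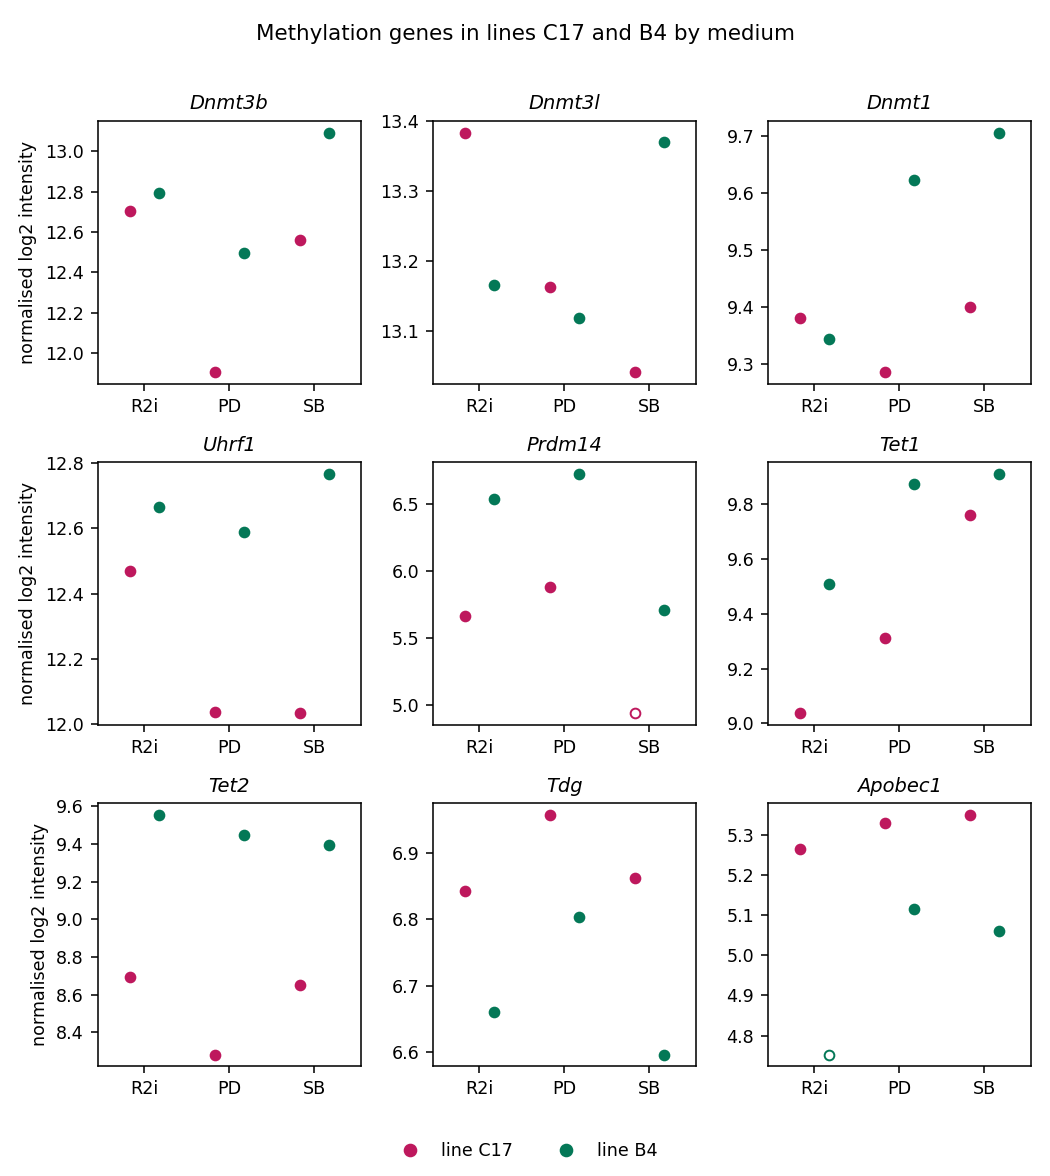
Normalised log2 intensity (vertical axes, scaled to each gene) of the 9 tested genes in R2i, PD and SB, with 1 array per line and medium, C17 in pink and B4 in green. Hollow points were not detected above the negative control beads. Prdm14 is lowest in SB in each line, and Dnmt3b is lowest in PD in each line.

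Dnmt3b read 12.70 in C17 R2i and 12.79 in B4 R2i, 11.90 in C17 PD and 12.50 in B4 PD, and 12.56 in C17 SB and 13.09 in B4 SB. It was lowest in PD in each line. R2i against PD gave 0.55 (SE 0.162) and did not pass (adjusted p = 0.30). PD against SB gave -0.63 (SE 0.162, adjusted p = 0.0577). For the second Dnmt3b probe that change was -0.86 (adjusted p = 0.0146). For the first it ran from -0.77 to -0.49 when 1 array was left out, passing without either R2i array (adjusted p = 0.026) and not in the other 4 fits (adjusted p from 0.067 to 0.542). R2i against SB gave -0.08 (95% interval -0.44 to 0.28).

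In limma 0 of the 9 genes changed between R2i and PD in C17 and B4, where 0.142% of all genes did and 959 genes had an unadjusted p below 0.05. Between R2i and SB 1 of 9 changed, against 2.13% of all genes, and between PD and SB 1 of 9, against 5.19%. In both the gene was Prdm14. The median change over the 9 genes was -0.09 for R2i against PD, 0.02 for R2i against SB and -0.09 for PD against SB, against 0.01, 0.00 and -0.01 over all genes. Tet1, a TET enzyme active in embryonic stem cells, read 9.04 in C17 R2i and 9.51 in B4 R2i, 9.31 in C17 PD and 9.87 in B4 PD, and 9.76 in C17 SB and 9.91 in B4 SB. It was lowest in R2i in each line, and its R2i against SB change of -0.56 (SE 0.152) did not pass (adjusted p = 0.097).

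**Figure D5:**
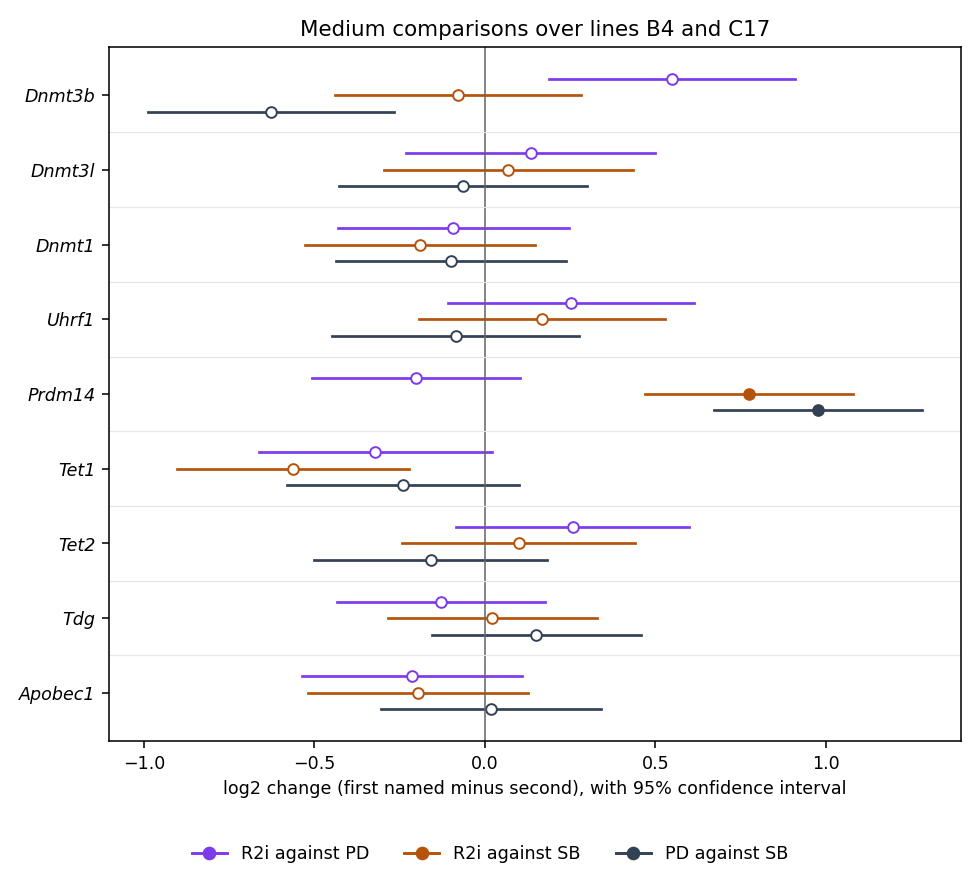
Log2 change (horizontal axis) of each gene over lines B4 and C17 with its 95% confidence interval, for R2i against PD, R2i against SB and PD against SB. Filled points passed an adjusted p of 0.05. Prdm14 at 0.78 and 0.98 against SB is the gene that passed.

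Between the lines, 5 of the 9 genes changed, and all 5 were lower in C17 than in B4, against 31.8% of all genes changed in either direction and 16.8% lower. Tet2 read 8.69, 8.28 and 8.65 in C17 and 9.55, 9.45 and 9.39 in B4 (R2i, PD and SB), with no overlap and a change of -0.92 (SE 0.125, 1.90-fold lower, adjusted p = 0.000886). Prdm14 gave -0.83 (adjusted p = 0.000877), Uhrf1 -0.49 (adjusted p = 0.0193), Dnmt3b -0.40 (adjusted p = 0.042) and Tet1 -0.39 (adjusted p = 0.0369). A dimmer Tet2 probe, the one used on MouseRef-8, was detected on B4 R2i and B4 PD and on no C17 array. It gave -0.08 (adjusted p = 0.626 in limma), so the change was not repeated by this probe. Its signal lay near background, which makes it a weak second measure. With 1 line of each strain, line and strain cannot be told apart. Probe sequences were not at hand, so an effect of strain sequence differences on the probe signals was not tested. The Uhrf1, Dnmt3b and Tet1 calls were each lost in 4 of the 6 fits that left out 1 array, and with no filter on detection. The second Dnmt3b probe gave -0.32, which did not pass (adjusted p = 0.0893 in limma).

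Other genes of the pathway, 66 in 8 lists, were examined beside the 10. Of the 50 tested in B20 and B18, 8 were higher and 2 lower in R2i than in PD, 11 higher and 4 lower in R2i than in 2i, and 7 higher and 7 lower in 2i than in PD. Shares of all genes called in these comparisons were 18.9%, 27.8% and 23.7%, as given above, so the 10, 15 and 14 genes called of 50 are near the background. Dppa3, which shields methylated DNA from oxidation in the egg and can displace UHRF1, showed the largest R2i change among them, at 2.11 against PD (SE 0.12) and 2.38 against 2i (SE 0.13), with detection on 6 of 6 R2i, 3 of 4 2i and 4 of 6 PD arrays. Uhrf2, the relative of Uhrf1, was 0.39 higher in R2i than in PD and 0.34 higher than in 2i, and was the only higher gene among the 5 tested maintenance partners in both comparisons. Changes given for these lists in B20 and B18 are averages over both lines. By the test of the difference, the R2i against PD change was higher in B20 than in B18 for 3 of the 50 genes and lower for 2 (4.29% of all genes differed).

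Of the 7 tested PRDM14 and Polycomb partners, 3 were higher in R2i than in PD and 4 did not pass, against 9.28% of all genes higher: Tfap2c, a germline and trophoblast transcription factor, by 0.62, Cbfa2t2, a co-repressor that binds PRDM14, by 0.48, and Suz12, a Polycomb subunit, by 0.26. Cbfa2t2 and Suz12 were higher in 2i than in PD as well, by 0.63 and 0.33. Of the 10 tested genes of oxidation and base excision repair, 0 changed between R2i and PD in limma (18.9% of all genes did). Smug1, a uracil glycosylase, was lower in R2i than in 2i at -0.38, and Xrcc1, a repair scaffold, was 0.21 higher in 2i than in PD.

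Among cytosine deaminases and Gadd45 genes, Apobec3 was lower in R2i than in PD (-0.47) and than in 2i (-0.72), the opposite direction to Apobec1 in the first comparison. Gadd45g, a stress-induced gene, was 0.83 higher in R2i than in PD. In C17 and B4 its relative Gadd45b was 1.26 higher in R2i than in SB and 1.14 higher in PD than in SB. Mat2a, which makes the methyl donor S-adenosylmethionine, was lower in 2i than in PD by -0.59, and Trim28 and Dppa4 of the imprint and methylation protection list by -0.41 and -0.37.

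Of 8 tested genes of de novo targeting and histone marks, Nsd1, a histone H3 methyltransferase, was 0.24 higher in R2i than in PD, and Kdm2b, a CpG-binding Polycomb component, was lower at -0.40. Of 5 methyl-CpG readers, Mbd1 was 0.23 higher in R2i than in PD, and Mbd4, a thymine glycosylase, was 0.42 higher in 2i than in PD. Of 6 genes of methyl donor metabolism, 0 changed between R2i and PD in limma. In C17 and B4, 51 of the 66 genes were tested. In limma 0 changed between R2i and PD, 1 was higher in R2i than in SB, 1 was higher and 1 lower in PD than in SB, and 4 were higher and 5 lower in C17 than in B4. Over all genes 0.142%, 2.13%, 5.19% and 31.8% were called in these comparisons. The lower gene of PD against SB was Zbtb33, a methyl-CpG reader, at -0.66.

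Germline genes known to be held silent by promoter methylation made up a further list of 15, of which 8 were tested. Of these, 6 were higher in R2i than in PD and 0 lower (9.28% of all genes were higher), and 4 were higher and 1 lower in 2i than in PD (11.4% and 12.3% of all genes). The median change over the 8 was 0.44 for R2i against PD and 0.43 for 2i against PD, against 0.01 and -0.01 over all genes. Rhox5 gave 2.75 for R2i against PD and 2.57 for 2i against PD, Taf7l 1.16 and 0.86, and Tex19.1 0.85 and 0.92. These are averages over both lines. By the test of the difference, the R2i against PD change was lower in B20 than in B18 for 2 of the 8 (2.15% of all genes). The same held for 2 of the 8 in 2i against PD (0.634% of all genes). Dazl gave 0.43 for R2i against PD and 0.94 for 2i against PD, while Rhox6 was lower in 2i than in PD at -0.64. In PD, Rhox5 was detected on 4 of 6 arrays and Taf7l on 1 of 6. Taf7l was detected on 6 of 6 R2i arrays and 2 of 4 2i arrays. It thus passed the detection filter through the media where it was higher. This list was chosen with earlier results of these data known, so its counts beside the shares of all genes are not a test. DNA methylation itself was not measured.

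Marker sums also differed between media. The summed intensity of the 8 embryonic stem cell markers was 37120 to 44860 in R2i, 47630 to 49730 in 2i and 50360 to 53720 in PD, with no overlap. Like the mean level of Prdm14 it was highest in PD. These sums add unlogged intensities, so the brightest marker, here Dppa5a (13.91 to 14.70 in log2), weighs most. Singly, 3 of the 8 were lower in R2i than in PD and 5 did not pass (9.61% of all genes were lower). The median change over the 8 was -0.15. Thy1, the detected feeder marker, was highest in 2i, as were Dnmt1 and Uhrf1, and was 0.88 higher in 2i than in PD. The summed intensity of 8 primitive endoderm markers was 623 to 760 in R2i, 489.5 to 643 in 2i and 874 to 1100 in PD. Only Gata6, Sox7, Dab2 and Lama1 of these were detected, and Gata4, Sox17, Foxa2 and Pdgfra were not detected on any B20 or B18 array. Of the 4 tested, 1 was higher and 2 lower in R2i than in PD (9.28% and 9.61% of all genes). The sum of 6 primed epiblast markers was 568 to 717 in R2i, 531 to 773 in 2i and 782 to 1149 in PD, with Otx2, Pou3f1 and Nodal detected. Both sums were highest in PD, as was Prdm14 on average, and both sums were lower in 2i than in PD, as was Dnmt3l. The sum of 8 trophoblast markers, with Cdx2, Elf5 and Hand1 detected on no array, was 2985 to 3629 in R2i, 2392 to 2825 in 2i and 1920 to 3232 in PD. Tfap2c was the brightest of these (10.46 to 11.64 in log2). Of the 5 tested, 2 were higher and 2 lower in R2i than in PD (9.28% and 9.61% of all genes). The sum of 5 germ cell markers, with Prdm1 and Nanos3 detected on no array, was 319 to 448 in R2i, 195 to 218 in 2i and 135 to 224 in PD, and like Dnmt3b it was highest in R2i. Dppa3 reached the highest level of these 5, at 8.25 in log2. The part of these markers in the results was not tested. In C17 and B4 the primed epiblast sum was 1448 to 1588 in R2i, 1654 to 1800 in PD and 1392 to 1459 in SB, and the embryonic stem cell marker sum was 32510 to 33970 in R2i, 36970 to 40520 in PD and 28760 to 31660 in SB.

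The genes with the most similar patterns were sought over the 16 B20 and B18 arrays after removal of the line means, among 8757 named genes. These correlations describe arrays that share media and chips and carry no test. Closest to Dnmt3b were Ptp4a3, a phosphatase (Pearson r = 0.94), Naprt, an enzyme of NAD synthesis (0.94), Cyria (0.93), Hmgxb4 (0.93) and Plac8 (0.92), and most opposite were Serpinb6c (-0.98) and Spsb1 (-0.97). Closest to Dnmt3l were Brms1 (0.94), Dio3, a thyroid hormone deiodinase (0.93), Trim2 (0.93), Nub1 (0.92) and Enox1 (0.91), and most opposite were Ubd (-0.94) and Tspo2 (-0.93). Uhrf1 was followed by Fam111a (0.95), Aldoc, an aldolase (0.94), Prkaca, a catalytic subunit of protein kinase A (0.94), Ppa1 (0.93) and Tm7sf2 (0.93), and opposed by Cd99l2 (-0.94) and Leprotl1 (-0.92). Prdm14 had looser companions, with Tubb2b, a tubulin, at 0.87, Cox5a, a respiratory chain subunit, at 0.87, Spats2l at 0.86, Tox3 at 0.86 and Agfg1 at 0.83, and Tex14 at -0.88 and Morc2a at -0.87 on the other side.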

How the data were processed

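Total RNA of 22 samples was hybridised to Illumina bead arrays. Per the file headers, the deposited tables give each probe's bead intensity before any normalisation and its detection p-value. The authors also deposited normalised log2 values. GenomeStudio and limma are named in the submitters' processing notes, without versions. Here neqc of limma 3.58.1 (R 4.3.3, offset 16) corrected the intensities against the negative control beads and applied quantile normalisation, platform by platform. A gene was represented by its detected probe with the highest mean. B18 and B20 were fitted with 1 mean per line and medium (10 residual degrees of freedom), both lines weighted equally, and B4 and C17 with line and medium as additive terms (2 residual degrees of freedom). Adjusted p-values are Benjamini-Hochberg values over all genes tested, from limma with eBayes, and genes at an adjusted p below 0.05 are called changed. SE is the moderated standard error. Named genes are the 10 genes, up to 4 of the largest called changes of each list, the readouts and the genes of most similar pattern. The genes and lists were chosen with earlier results of these data known, so their counts beside the shares of all genes are not a test. The labels do not say that replicates were separate cultures, so the spread behind each p-value may be technical. The number of arrays limits the precision. Alternatives were no background correction, median scaling, other detection filters, the dimmest probe, the authors' deposited log2 values, an offset of 50, each line alone, a replicate block and leaving out each array.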

Additional observations from a re-analysis of the deposited data

Results flagged for a closer look

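The R2i against PD response differed between B20 and B18, by the test of the difference itself, for 3 of the 8 genes, against 4.29% of all genes. The difference, B20 minus B18, was -0.98 for Prdm14 (adjusted p = 0.00613), 0.61 for Dnmt3l (adjusted p = 0.0154) and 0.50 for Dnmt3b (adjusted p = 0.0448), all in limma. With median scaling the Dnmt3l and Dnmt3b calls were lost (adjusted p = 0.0576 and 0.159 in limma). The Dnmt3b call was also lost with a replicate block (adjusted p = 0.0556) and with no detection filter (adjusted p = 0.0502). Because B20 and B18 were hybridised on different chips, a chip difference cannot be told apart from a line difference.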

How the results depend on the processing

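Of 1852 single-gene values recomputed under the alternatives, 1755 kept their side of the threshold, 68 lost the call and 28 gained it. The sign changed in 74, of which 73 passed the test in neither setting, such as Dnmt3l for R2i against PD (-0.06 over both lines, 0.25 within B20 alone) and Dnmt1 (-0.05 and 0.20). The other one was Dnmt3b for B20 against B18, called at 0.19 and at -0.12 with its dimmer probe. Counts of changed genes that moved by over 1.5 times were as follows. Within B18 alone and within B20 alone 2 genes changed between 2i and PD (6 over both lines), and within B20 alone 2 between R2i and 2i (5 over both). With median scaling 1 gene differed between lines in R2i against PD (3 otherwise). With median scaling, without background correction and with an offset of 50, 1 gene differed between lines in each of the other 2 medium comparisons (0 otherwise). In B4 and C17 without background correction, or with no detection filter, 0 genes changed for R2i against SB and 0 for PD against SB. With an offset of 50 these were 2 and 2. R2i against SB gave 0 with only genes detected on every array, and PD against SB gave 2 with the dimmest probe of each gene. C17 against B4 gave 2 with no detection filter and 3 with the dimmest probes.

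Leaving out 1 array at a time gave 3 to 4 genes for R2i against PD in B18 and B20, 3 to 6 for R2i against 2i, 4 to 6 for 2i against PD, and 3 to 4 for B20 against B18. The line differences gave 2 to 3 for R2i against PD, 0 to 1 for R2i against 2i and 0 to 2 for 2i against PD. In B4 and C17 the ranges were 0 to 0 for R2i against PD, 0 to 2 for R2i against SB, 1 to 2 for PD against SB and 2 to 4 for C17 against B4. Without the second B18 2i array 3 genes changed between R2i and 2i. Where this left a medium with 1 array in a fit, that array was assumed to vary like the others. Of 18 pairs of same-numbered R2i and PD arrays, 1 had deviations correlated above 0.1. This check left out the 2i arrays and cannot show whether same-numbered samples were handled together. With replicate number as a block, 2 genes differed between lines in R2i against PD, since Dnmt3b had an adjusted p of 0.0556, and no other call of these genes in B18 and B20 changed. Median scaling moved the median of all genes by over 0.1 in 3 of 11 comparisons, most for B20 against B18, to 0.165, where 89.7% of called genes were then higher (47.8% otherwise). It made 28.0% of called genes higher for R2i against PD in B18 and B20 (49.1% otherwise), 61.8% for R2i against 2i (51.5%), 20.3% for 2i against PD (48.3%) and 30.2% for C17 against B4 (47.2%).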
